A study of Rattus norvegicus with 18 samples.

Results

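Ageing of the liver on virgin olive oil was measured as the difference between 3 arrays from rats killed at 24 months and 3 arrays from rats killed at 6 months, all fed virgin olive oil as their dietary fat. These 6 arrays were taken by their titles from the 18 of the series, and all 14217 genes that a probe set named were described. The other 12 arrays came from rats of the same ages fed sunflower oil or fish oil. They served to estimate the spread between animals and to test whether the age difference on virgin olive oil differed from that on the other oils.

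The animals were male Wistar rats, an outbred strain, kept from weaning on a semi-synthetic diet of the AIN93 type with 4% fat by weight. For 2 months they ate freely, after which each rat got 25 g of food a day, and 3 rats shared a cage. They were killed by cervical dislocation and decapitation, either young, at 6 months, or old, at 24 months. RNA from a piece of whole liver was hybridised to 1 Affymetrix rat expression array per animal. The young and old groups shared oil, diet, strain and sex, and a killing session, cohort or array batch that went with age cannot be told apart from age. Cage mates are not identified in the labels. The 3 animals of a group may have shared a cage, so p-values measure the spread between animals and may not cover the spread between cages.

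The liver makes most plasma proteins, stores and releases glucose, turns amino acid nitrogen into urea and clears foreign compounds, and hepatocytes do most of this work. Ageing of the rodent liver is known for low-grade inflammation, for senescent cells and, in males, for a partial loss of the sex-specific gene pattern that pulsed growth hormone maintains. Virgin olive oil is rich in oleic acid, a monounsaturated fatty acid that the liver also makes for itself with the desaturase encoded by Scd.

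Signals were the authors' linear intensities, and a difference is old minus young as log2(signal + 16), a scale that understates the change of dim genes, and is given ± its standard error in limma. A gene was called when its adjusted p in limma, over all genes, was under 0.05. Its arrays did not overlap when all 3 old signals lay on the same side of all 3 young ones. With 3 animals against 3, an exact permutation test of a single gene cannot give a two-sided p under 0.1, so that non-overlap passes no test on its own. Array medians were 16.1 to 16.5 in young and 18.5 to 19.6 in old livers, and the median difference over all genes was 0.02, or -0.01 after quantile normalization. Of the 11 hepatocyte markers measured, none was under a signal of 16 on all 6 arrays, and Alb, which codes for albumin, ran from 7817.9 to 12350.5. Young animal 2 stood farthest from the other young livers, with 409 genes more than 1 log2 unit from the mean of the other two. The same count was 336 for young animal 3 and 241 for young animal 1. Values without young animal 2 are given beside the results it touches.

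Between old and young livers on virgin olive oil 20 genes were called, which was 0.141% of the genes tested. Of these 20 genes, 14 rose (0.0985% of all genes) and 6 fell (0.0422%). At an unadjusted p under 0.05, 5.5% of all genes were higher and 4.55% lower. The risers included a phosphate transporter, a class I histocompatibility molecule, interferon-induced genes, a p53 target and the gene for the antioxidant regulator NRF2. The 6 that fell were led by Inmt, a methyltransferase, and Eif4ebp3, a brake on translation. Old and young arrays overlapped for none of the 20, which choosing genes by their difference on these same arrays favours, so it adds no support to the calls. Over all genes 8.18% had every old array above every young array and 5.73% had every old array below. In whole liver, fewer cells of a type and less RNA per cell cannot be told apart. The number called rested on single animals. Without old animal 2 there were 2 higher and 1 lower, and without young animal 1 there were 3 higher and 0 lower. Counts were 12 and 2 without old animal 1, 6 and 2 without old animal 3, 6 and 1 without young animal 2, and 15 and 10 without young animal 3. Leaving out all arrays numbered 2 at 6 months, in the 3 oils, left 1 call, Tkfc, and none of the 20, although all 20 kept their direction.

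**Figure D1:**
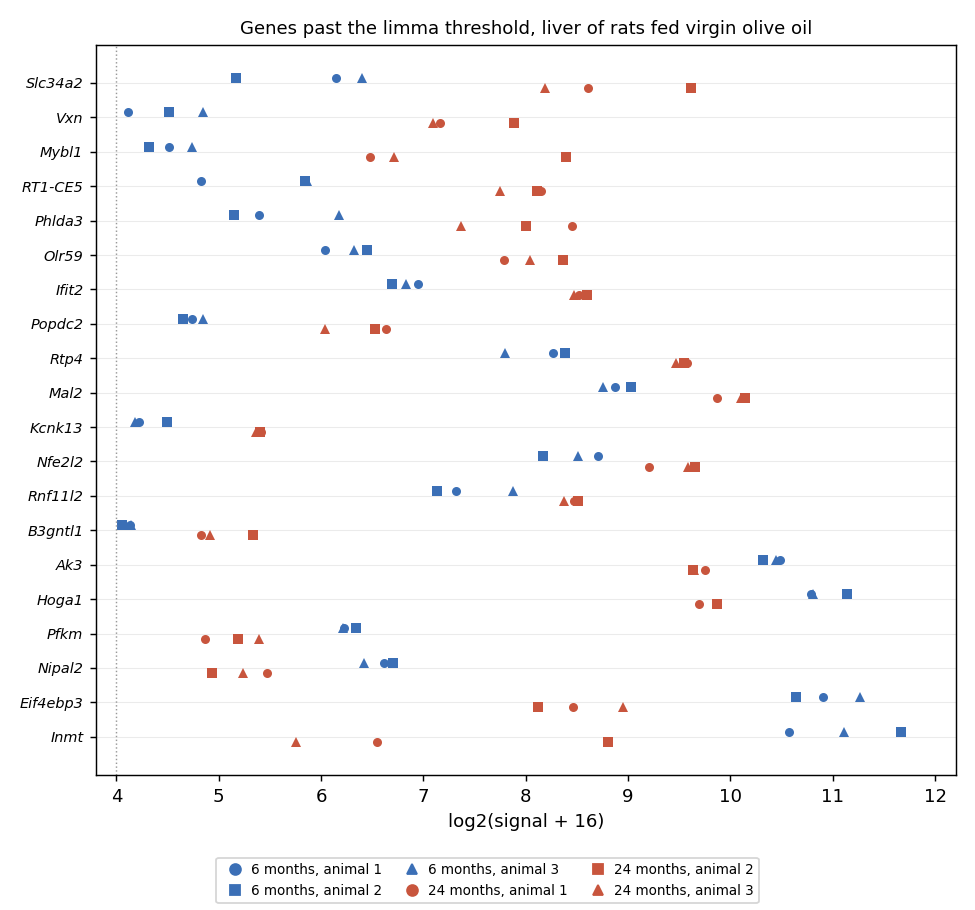
Signal of each of the 20 called genes on the 6 virgin olive oil arrays, on the log2(signal + 16) scale, with 6-month animals in blue and 24-month animals in red and a marker shape for each animal number. The dotted line at 4 marks a signal of 0. No gene shows an overlap between the ages, and the largest mean difference is that of Inmt at the bottom.

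Slc34a2 encodes a sodium-dependent phosphate transporter of epithelial cells. Its signal was 54.8, 19.9 and 68.5 in young livers and 375.6, 770.4 and 275.4 in old ones. Old livers thus held every high value, with the highest in animal 2, and the groups were far apart. The difference was 2.90 ± 0.411 (7.48-fold, limma adjusted p = 0.00968), and the call was lost without old animal 2. Slc34a2 was also on the list of cholangiocyte markers, cells that line the bile ducts, of which 9 were measured. None of the other markers had arrays that did not overlap. Of the 9 markers 5 had differences above 0 and 4 below, with a median of 0.03. The ductal markers Krt19 and Epcam were among those lower in old livers on average, by differences of -0.57 and -0.66, and did not pass (adjusted p = 0.415 and 0.456). Summed over the list the signal was 215.4 to 352.1 in young and 437.5 to 977.5 in old livers, a sum that contains Slc34a2 itself, and 2 of the 9 markers were under 16 on all 6 arrays. The part of bile duct cells in the rise was not tested.

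Mybl1 encodes a transcription factor of the MYB family. It stood at 6.9, 3.9 and 10.6 in young livers and at 73.4, 320.8 and 88.6 in old ones. All young signals were near the bottom of the scale and old animal 2 was again the highest. The difference was 2.67 ± 0.378 (6.38-fold, adjusted p = 0.00968), and the call was lost without young animal 1. Vxn, which encodes vexin, a protein studied in neural development, gave 1.3, 6.8 and 12.7 in young and 126.8, 220.7 and 121.0 in old livers. The gain was 2.89 ± 0.486 (7.42-fold, adjusted p = 0.0204). A second, dimmer probe set of Vxn ran the other way, at 10 to 10.4 in young and 2.1 to 4.8 in old livers (-0.44), so the rise rests on the brighter probe set, and the average of both did not pass (1.23, adjusted p = 0.125). Without young animal 3 the call of Vxn held, and it was lost with each of the other 5 arrays left out.

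The genes that rose further included 6 with membrane or enzymatic roles and less separation between ages. Olr59, an olfactory receptor gene, had signals of 49.7, 71.5 and 63.9 in young and 205.4, 314.4 and 246.7 in old livers. The gain of 1.80 ± 0.273 (3.47-fold, adjusted p = 0.0129) was carried by all 3 old animals. Popdc2, a Popeye domain protein best known from heart and muscle, gave 10.6, 9.1 and 12.8 against 83.2, 76.3 and 49.8 (1.66 ± 0.312, adjusted p = 0.0493), and its other probe set gave 1.03 (adjusted p = 0.0718 over all probe sets). None of the 9 skeletal muscle markers had arrays that did not overlap, and their median difference was -0.13 (-0.26 to -0.02 with an array left out). Mal2, a membrane protein of the transcytosis route through which hepatocytes sort proteins to the bile canaliculus, gave 451.9, 505.9 and 416.0 against 920.3, 1116.9 and 1083.5. Old livers of Mal2 lay in a narrow range above the young ones (1.16 ± 0.179, 2.23-fold, adjusted p = 0.0129), and its other probe set had a difference of 1.95 (adjusted p = 0.0272 over all probe sets). Kcnk13, a potassium channel of the tandem pore family, stood at 2.6, 6.5 and 2.1 in young and 26.7, 26.2 and 25.3 in old livers (1.10 ± 0.202, adjusted p = 0.0408). The glycosyltransferase-like gene B3gntl1 was as dim, at 0.6 to 1.6 against 12.3 to 24.3 (0.92 ± 0.165, adjusted p = 0.0361). Rnf11l2, a RING finger gene, gave 124.5 to 219.3 against 316.8 to 349.8 (1.01 ± 0.184, adjusted p = 0.0375). Popdc2 and Kcnk13 lost their calls with each of the 6 arrays left out, B3gntl1 and Rnf11l2 with 5, and Olr59 and Mal2 with 3.

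Nfe2l2 codes for NRF2, the transcription factor that switches on antioxidant and detoxification genes when its inhibitor lets go of it. Young livers gave 402.4, 271.4 and 349.1 and old livers 574.8, 792.4 and 750.7. The ages did not overlap, although young animal 1 and old animal 1 came close to each other. The gain was 1.02 ± 0.193 (2.03-fold), at the edge of the threshold (adjusted p = 0.0493), and the call held in 1 of the 6 fits with an array left out.

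Among the genes that fell, Inmt had the widest change. It encodes indolethylamine N-methyltransferase, which methylates small amines. Young livers gave 1505.5, 3242.3 and 2198.4, and old livers 77.7, 430.8 and 38.0. Every old signal was well below the lowest young one, with old animal 2 the highest of the old. Inmt fell by 4.08 ± 0.668 on the log2 scale (16.9-fold, adjusted p = 0.0179). Eif4ebp3, which binds the cap-binding protein eIF4E and holds back translation initiation, gave 1906.1, 1577.3 and 2442.0 in young and 337.0, 262.6 and 479.3 in old livers. The groups were far apart, and the fall was 2.42 ± 0.347 (5.37-fold, adjusted p = 0.00968). Inmt kept its call in 2 of the 6 fits with an array left out and Eif4ebp3 in 4.

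The other genes that fell act in metabolism or ion transport. Pfkm, the muscle-type phosphofructokinase of glycolysis, gave 58.5, 65.3 and 58.0 in young and 13.2, 20.4 and 26.1 in old livers (-1.11 ± 0.176, 2.16-fold, adjusted p = 0.0138). Nipal2, of a family of magnesium transporter-like proteins, went from 82.0, 88.4 and 69.3 to 28.3, 14.6 and 21.7 (-1.36 ± 0.209, adjusted p = 0.0129). In both the young livers lay close together and the old ones were more spread, and both lost their calls with 4 of the 6 arrays left out. Hoga1, a mitochondrial aldolase of hydroxyproline breakdown whose loss in humans gives primary hyperoxaluria, gave 1755.7, 2241.5 and 1781.2 against 810.1, 921.0 and 917.7 (-1.10 ± 0.195, adjusted p = 0.0313). Ak3, the GTP-linked adenylate kinase of the mitochondrial matrix, gave 1420.3, 1264.5 and 1378.0 against 846.5, 778.5 and 785.1 (-0.74 ± 0.13, adjusted p = 0.0313). Hoga1 and Ak3 were bright and evenly lower, but lost their calls with each array left out in turn and when all probe sets of a gene were averaged. Averaged over its probe sets Pfkm did not pass either (-0.62, adjusted p = 0.169), and its other probe sets, both dim, gave -0.78 and 0.03 (adjusted p = 0.343 and 0.984). The second probe set of Ak3 gave -0.30 (adjusted p = 0.68 over all probe sets), and the 2 other probe sets of Hoga1 gave -0.41 and -0.63 (adjusted p = 0.823 and 0.353).

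The age difference of these 20 genes was then set beside that in rats fed the other oils, which shared no arrays with the virgin olive oil groups. The fit gave each gene a single spread, pooled over all 18 arrays and the same for every oil. A gene with a small spread was thus easier to call on each oil, and calls on different oils were not independent. With sunflower oil 18 of the 20 had the same sign and 19 had a smaller size. With fish oil 19 had the same sign and 14 a smaller size, and 13 were called there in the same direction. Those 13 were 65% of the genes called on virgin olive oil and 5.35% of the 243 called on fish oil, where 1.71% of all genes passed. No gene was called on sunflower oil by limma (smallest adjusted p = 0.0667), where 1086 genes (7.64%) had an unadjusted p under 0.05. In 13 of the 20 the size was largest on virgin olive oil, as choosing genes by their difference there favours.

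**Figure D2:**
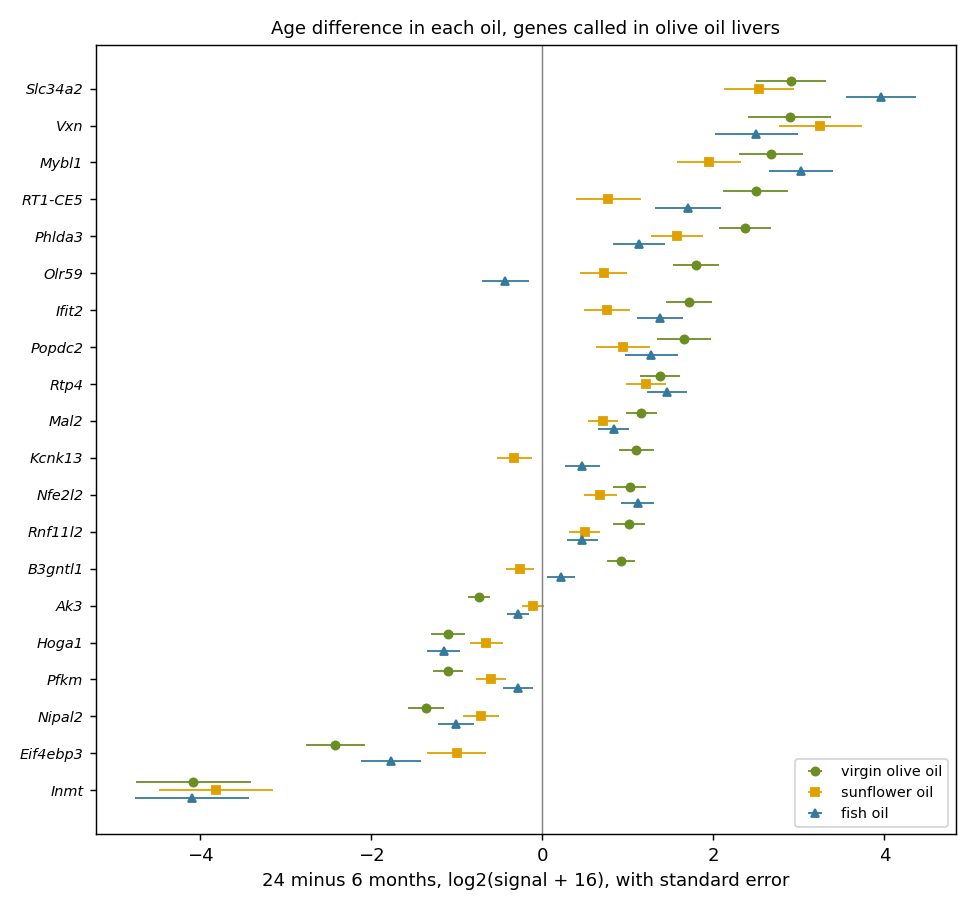
Age difference (24 minus 6 months, log2(signal + 16) scale) with its standard error for the 20 genes called on virgin olive oil, in rats fed virgin olive oil (green circles), sunflower oil (yellow squares) and fish oil (blue triangles), 3 animals per age and oil. Inmt and Rtp4 have close differences in all 3 oils, and Olr59, Kcnk13 and B3gntl1 have differences on either side of 0.

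The test of the difference itself called no gene. In limma the age difference on virgin olive oil differed from the mean of the other oils for 0 genes (smallest adjusted p = 0.929; 579 genes, 4.07%, at an unadjusted p under 0.05), from sunflower oil for 0 genes (0.897; 544, 3.83%) and from fish oil for 0 genes (0.187; 787, 5.54%). At 6 months the same-numbered arrays of different oils deviated together (correlations with virgin olive oil of 0.15, 0.42 and 0.18 for sunflower oil and 0.24, 0.40 and 0.25 for fish oil), which this fit leaves out. With the number as a block at 6 months limma again called 0 genes in each of the 3 contrasts (715, 650 and 948 genes at an unadjusted p under 0.05), as it did with a block within each age (835, 722 and 1084). The genes with the smallest p against the mean of the others are given as values only. Scn10a, a voltage-gated sodium channel, had age differences of 1.07 on virgin olive oil, 0.12 on sunflower oil and -0.72 on fish oil (virgin olive oil minus the mean of the others 1.36, 95% interval 0.82 to 1.91). It was dim, at 2.1, 5.5 and 5.7 in young and 20.4, 24.8 and 36.1 in old livers on virgin olive oil. Olr59 had 1.80, 0.71 and -0.44, which gave 1.66 (0.95 to 2.37), and B3gntl1 had 0.92, -0.26 and 0.21, which gave 0.94 (0.51 to 1.37). Tp53inp1, a p53 target, had 1.12, -0.06 and -0.36 (1.32, 0.67 to 1.98), and Rgs3, a regulator of G protein signalling, had -0.98, -0.0002 and 1.32 (-1.64, -2.46 to -0.81). Against sunflower oil alone B3gntl1 and Kcnk13 came first, and against fish oil alone Scn10a and Olr59. B3gntl1 and Kcnk13 were dim, with mean young signals of 1.23 and 3.73 on virgin olive oil, 11.2 and 21.5 on sunflower oil and 10.1 and 12.6 on fish oil. For Slc34a2, Vxn, Inmt and Rtp4 the interval of the difference from the other oils spanned 0, from -1.41 to 0.72, -1.24 to 1.28, -1.86 to 1.61 and -0.55 to 0.64. Without old animal 3 on virgin olive oil 1 gene, the prolactin receptor gene Prlr, passed against the mean of the others.

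Gene lists were described by counts and medians, and differences between oils in a list's median were not tested. Among 27 lists of pathways, the interferon response had the highest share of members above, and amino acid catabolism the highest share below, in the plot of all lists.

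**Figure D3:**
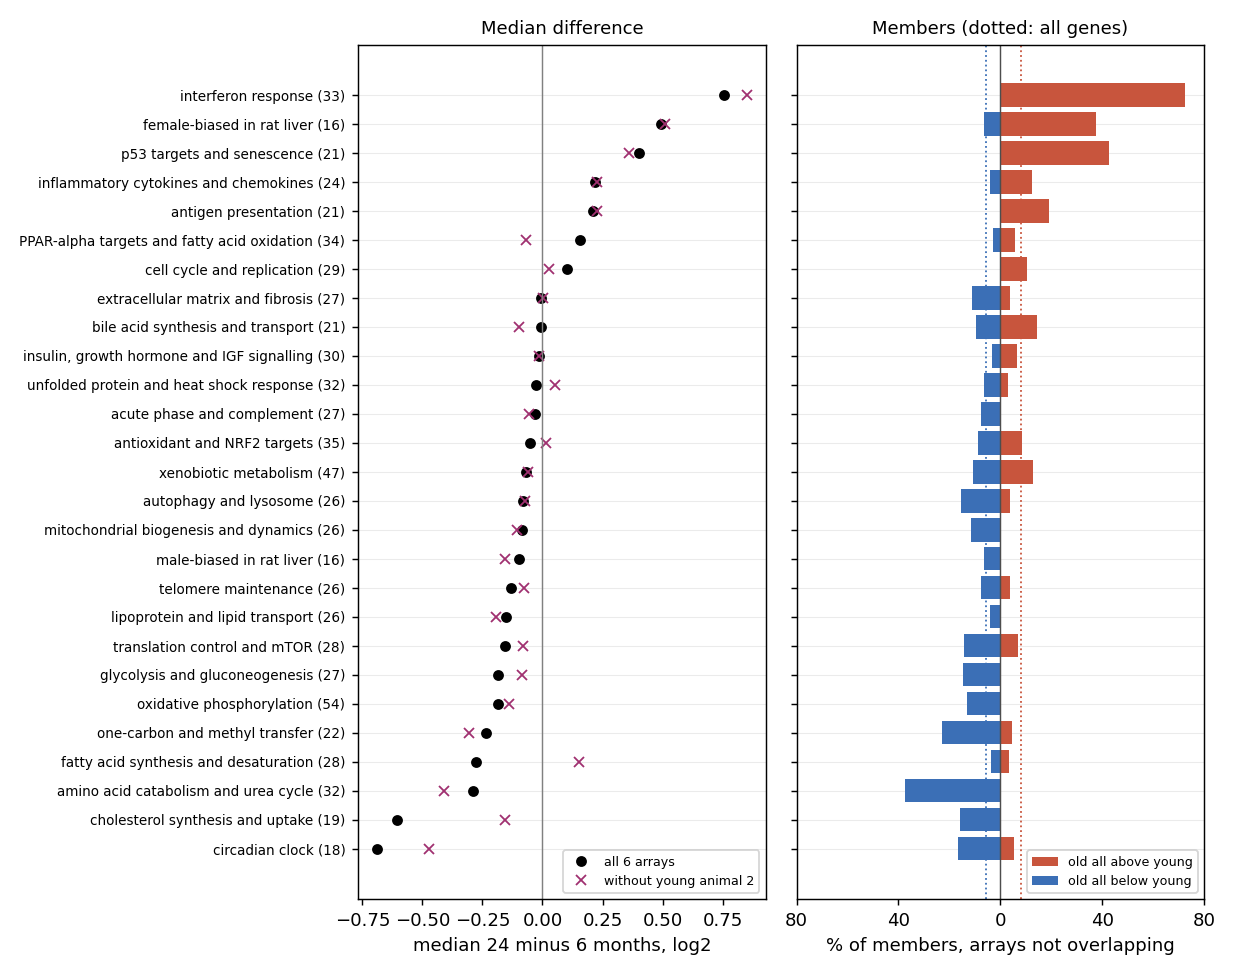
Left, median age difference (24 minus 6 months, log2) of each gene list on virgin olive oil, over all 6 arrays (black dots) and without young animal 2 (purple crosses), with the number of measured members in brackets. Right, percent of members with all old arrays above (red) or below (blue) all young arrays, with dotted lines at the 8.18% and 5.73% of all genes. The interferon response reaches 72.7% above and amino acid catabolism 37.5% below, and the medians of fatty acid and cholesterol synthesis move most without young animal 2.

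Interferon response genes encode sensors of foreign RNA and DNA, antiviral effectors and the factors that transmit the signal, and many carry an interferon-stimulated response element near their start. Of 33 measured members 2 rose, Ifit2 and Rtp4, and 0 fell. In 24 members every old array was above every young array (72.7%, against 8.18% of all genes), in 0 it was the reverse, and 32 of the 33 differences were above 0. The list median was 0.75, or 0.85 without young animal 2, when 26 members did not overlap (12.7% of all genes). It was 0.35 with sunflower oil and 1.41 with fish oil.

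Ifit2, an antiviral protein that binds RNA, gave 107.1, 87.8 and 97.4 in young and 351.7, 372.1 and 340.1 in old livers. Each age was tightly grouped and the ages were well apart (1.71 ± 0.27, 3.27-fold, adjusted p = 0.0138), and its other probe set had a difference of 1.49 (adjusted p = 0.0272 over all probe sets). Rtp4, a chaperone-like protein induced by interferon, gave 291.4, 318.1 and 207.0 against 745.3, 730.3 and 690.2. The old livers again lay close together (1.38 ± 0.231, 2.6-fold, adjusted p = 0.0204). Ifit2 held its call in 1 and Rtp4 in 0 of the 6 fits with an array left out. Irf7, the transcription factor that amplifies the interferon response, stood at 63.6, 104.7 and 68.0 in young and 280.1, 305.5 and 200 in old livers, a difference of 1.56 ± 0.382 that did not pass (adjusted p = 0.152). The oligoadenylate synthetase-like gene Oasl gave 49.2, 26.5 and 46.1 against 122.9, 147.7 and 69.6 (1.17 ± 0.231, adjusted p = 0.0635), and it was called without old animal 3. Stat2, a carrier of the signal from the receptor, was the single member with a difference below 0 (-0.32, arrays overlapping).

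The window from 250 bases before the start of transcription to the start was read from RefSeq promoters (GRCr8) for 26 of the 33 members, and for 11733 of all measured genes. The core of the response element, 2 copies of GAAA with any 2 bases between them, was found on either strand in 17 of the 26 (65.4%), against 2.65% of the measured genes with a promoter and 3.29% of all 27457 promoters. It was in 12 of the 18 members whose arrays did not overlap and in 5 of the 8 whose arrays did. Promoters of Ifit2 and Rtp4, the called interferon genes, were not read here, and of the 14 other called genes with a promoter 0 held it. The stretches shown are the upstream sequence around the core in the 5 members with the largest age difference among those that held it and did not overlap, with the core, or its reverse complement for Irf7, in capitals. They lie at chr1:205800048-205800127 on the minus strand (Irf7), chr14:15988816-15988867 on the plus strand (Cxcl10), chr10:42874909-42874988 on the plus strand (Igtp), chr10:33742579-33742647 on the minus strand (Irgm) and chr10:104127854-104127933 on the minus strand (Lgals3bp), and each is written 5′ to 3′ along its gene.
Irf7: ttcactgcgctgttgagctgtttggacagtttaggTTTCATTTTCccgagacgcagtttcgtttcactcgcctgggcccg
Cxcl10: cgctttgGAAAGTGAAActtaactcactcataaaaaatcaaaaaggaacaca
Igtp: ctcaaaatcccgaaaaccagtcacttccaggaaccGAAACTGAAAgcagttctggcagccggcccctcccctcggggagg
Irgm: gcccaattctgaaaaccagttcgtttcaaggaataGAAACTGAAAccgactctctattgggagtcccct
Lgals3bp: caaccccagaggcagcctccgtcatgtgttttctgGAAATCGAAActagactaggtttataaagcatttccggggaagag

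The genes behind these stretches are Irf7, Cxcl10 (a chemokine), Igtp and Irgm (GTPases induced by interferon) and Lgals3bp (a secreted glycoprotein). Irgm gave 47.1, 54.4 and 54.1 in young and 222.9, 192.9 and 189.4 in old livers (1.68, adjusted p = 0.279), and Igtp 163.3, 210.1 and 126.8 against 440.0, 530.9 and 353.4 (1.33, adjusted p = 0.441). Lgals3bp gave 61.4, 107.8 and 23.2 against 195.8, 257.3 and 130.3 (1.5, adjusted p = 0.176). Cxcl10 was dim, at 5.7 to 16.9 against 29.2 to 47.5 (1.01, adjusted p = 0.645). In all 4 the ages stood apart, as their choice among members without overlap required, and none passed the threshold. Irgm was called when the 6 virgin olive oil arrays were fitted alone.

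**Figure D4:**
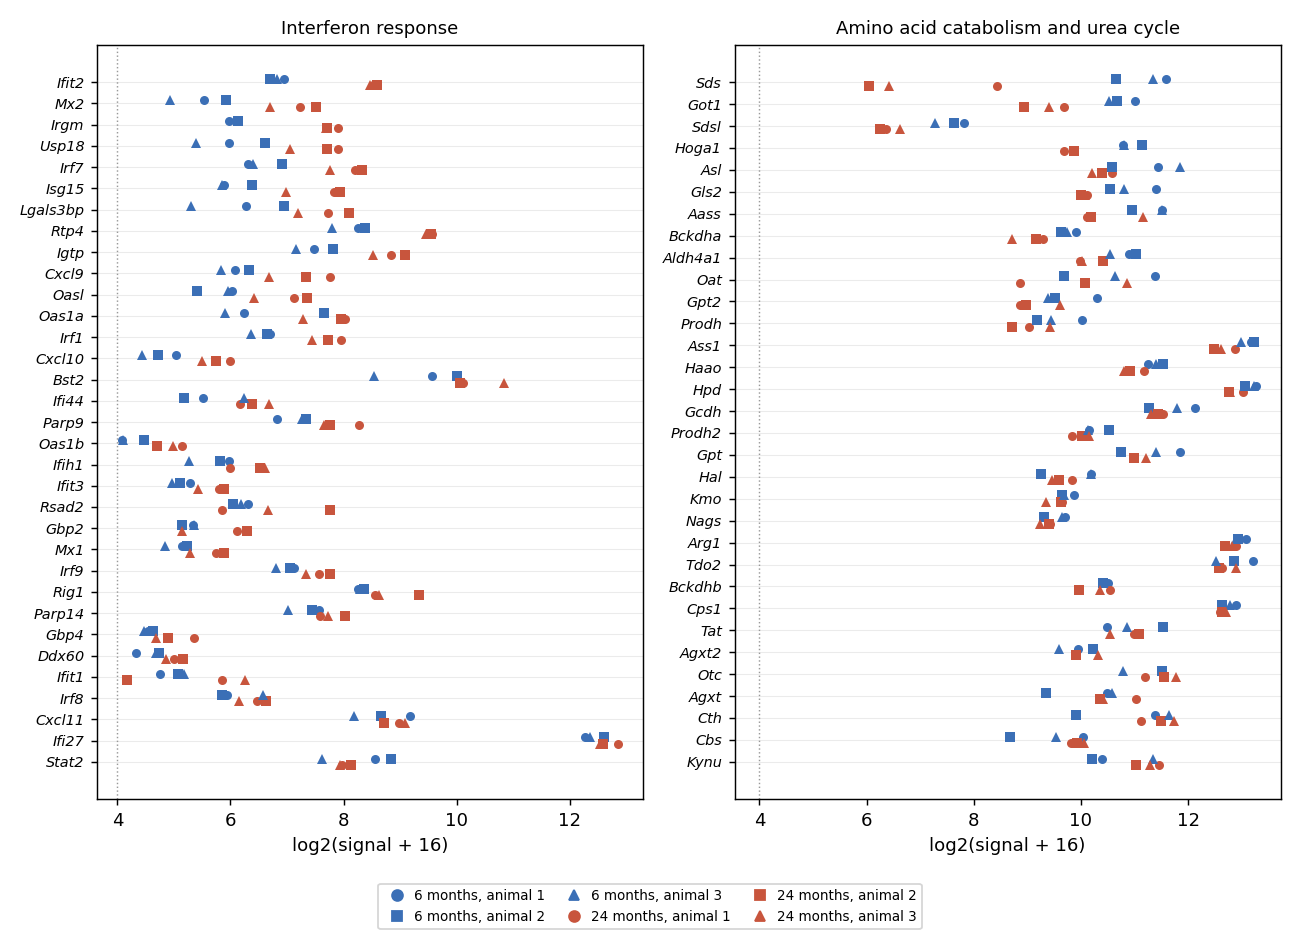
Signal of each measured member of the interferon response list (left) and of the amino acid catabolism and urea cycle list (right) on the 6 virgin olive oil arrays, on the log2(signal + 16) scale, ordered by age difference, with 6-month animals in blue and 24-month animals in red. On the left 24 of 33 genes have every red symbol to the right of every blue one, and on the right 12 of 32 have every red symbol to the left.

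Antigen presentation genes load peptides onto the class I and class II molecules that T cells read. Of 21 measured members 1 rose and 0 fell, and 4 had every old array above every young array (19.0%, against 8.18% of all genes). The median was 0.21 (-0.23 with sunflower oil and 1.14 with fish oil). That median was 0.14, 0.13 and 0.34 without old animal 1, 2 or 3 and 0.09 without young animal 3. The member that rose was RT1-CE5, a class I molecule, at 12.4, 41.2 and 42.3 in young and 267.8, 260.2 and 198.9 in old livers (2.49 ± 0.381, 5.62-fold, adjusted p = 0.0129). All old livers were high and young animal 1 was lowest. Its 5 probe sets ranged from -0.04 to 2.49, and 3 of them passed over all probe sets, but RT1 genes are near-identical copies whose probes can share signal, so the identity of the gene is uncertain. The call was lost without old animal 1, old animal 2 or young animal 1. The peptide transporter Tap1 gave 57.6, 85.2 and 64.3 against 109.1, 141.5 and 86.7 (0.59, adjusted p = 0.671), with young animal 2 close to old animal 3. The immunoproteasome subunit Psmb8 gave 507.6, 680.8 and 359.9 against 968.4, 915.2 and 767.4 (0.80, adjusted p = 0.482), and the class II chain RT1-Da had a difference of 0.69 (adjusted p = 0.679).

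Of 24 measured genes for inflammatory cytokines and chemokines limma called 0 (2 higher and 1 lower at an unadjusted p under 0.05), and the median was 0.22 (0.10 with sunflower oil and 0.93 with fish oil). Interleukin 1 beta (Il1b) gave 21.1, 20.5 and 20.1 in young and 46.0, 47.6 and 39.0 in old livers, tight and apart at both ages (0.72 ± 0.421, adjusted p = 0.604). Cxcl12, which holds leukocytes in tissue, ran from 926.6 to 1809.4 in young and from 2330.4 to 3471.2 in old livers (0.95, adjusted p = 0.277). Ccl5, a chemokine of T and NK cells, ran the other way, from 181.9 to 203.0 down to 68.2 to 125.9 (-0.90, adjusted p = 0.329). Tnf (0.19) and Ccl2 (0.23) overlapped between the ages.

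Markers of the immune cells that carry such genes were measured beside them. In 3 of 10 macrophage markers, Clec4f of Kupffer cells, the complement gene C1qa and Cd68, every old array was above every young array (30%, against 8.18% of all genes), and the list median was 0.49 (0.06 with sunflower oil and 0.84 with fish oil). Their summed signal was 2703.8 to 3219.4 in young and 3909.2 to 4662.9 in old livers, without overlap, and limma called 0 of the 10 (2 higher at an unadjusted p under 0.05). Of 11 monocyte and granulocyte markers 2 lay above without overlap (18.2%, against 8.18% of all genes), with sums of 1056.0 to 1444.3 and 1147.8 to 1589.0 and 4 markers under 16 on all arrays. The 16 T and NK cell markers had a median of 0.01 (-0.09 to 0.12 with an array left out), sums of 415.9 to 482.7 in young and 317.8 to 400.8 in old livers, and 5 markers under 16 on all arrays, Cd3d, Cd8a, Cd8b, Klrd1 and Cd5. Of the 16, 8 had differences above 0 and 8 below. The sum contains Ccl5, at 181.9 to 203.0 in young and 68.2 to 125.9 in old livers. The part of macrophage number in the interferon and antigen presentation values was not tested.

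The p53 pathway answers DNA damage by stopping the cell cycle or starting cell death, and its targets mark senescent cells. Of 21 measured members 1 rose and 0 fell. In 9 every old array was above every young array (42.9%, against 8.18% of all genes), and 0 had the reverse (5.73% of all genes). The median was 0.40 (0.13 with sunflower oil and 0.46 with fish oil). Phlda3, a p53 target that restrains the kinase AKT, stood at 26.1, 19.5 and 56.1 in young and 333.2, 240.4 and 149.5 in old livers. The old livers all lay above the young ones, and the difference was 2.37 ± 0.306 (5.16-fold, adjusted p = 0.00968). Phlda3 was the single gene called in all 6 fits with an array left out. It was not called when the 6 virgin olive oil arrays were fitted alone (limma adjusted p = 0.102).

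Other members were higher without passing. The nuclease gene Aen, a p53 target, gave 82.0, 48.7 and 126.3 against 162.9, 190.0 and 142.6 (0.90 ± 0.222, adjusted p = 0.152), with young animal 3 close to old animal 3. Tp53inp1 stood at 11.7, 3.0 and 2.2 against 32.3, 41.0 and 19.4 (1.12 ± 0.253, adjusted p = 0.113). The stress cytokine Gdf15 stood at 13.0, 1.9 and 2.2 against 24.4, 21.9 and 30.5, also dim (0.97 ± 0.191, adjusted p = 0.0614). Aen was called without young animal 3 and Gdf15 without young animal 1. Cdkn1a, which encodes the cell cycle inhibitor p21, overlapped: 75.5, 84.2 and 322.0 in young and 750.7, 258.8 and 391.9 in old livers (1.60 ± 0.566, adjusted p = 0.34). Young animal 3 held the high young value of Cdkn1a, Aen and Phlda3. The core of a p53 site, 2 copies of CATG with any 6 bases between them, on either strand, was in 0 of the 18 members with a promoter and in 0.213% of measured genes.

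Of 29 genes of the cell cycle and replication limma called 0 (3 higher at an unadjusted p under 0.05), and the median was 0.10. Without young animal 2 the median was 0.03 and 7 members lay above, as did 12.7% of all genes. With all 6 arrays 3 members did not overlap, all above (10.3%, against 8.18% of all genes). They were the mitotic kinase Aurka, at 3.4, 2.0 and 5.8 against 17.3, 19.7 and 18.1 (0.80, adjusted p = 0.235), the helicase subunit Mcm4 (0.33) and Cdk6 (0.17), all near the floor of the scale. Cyclin D1 (Ccnd1) ran from 16.8 to 179.3 in young and from 98.0 to 529.1 in old livers and overlapped (1.78 ± 0.753, adjusted p = 0.432). Telomerase (Tert) was dim at both ages (0.41, adjusted p = 0.676). Ten1, a telomere capping subunit, stood at 75.3, 45.3 and 128.0 against 523.6, 241.8 and 146.6 (1.60 ± 0.374, adjusted p = 0.123), highest in old animal 1, while the median of 26 telomere genes was -0.13 (-0.17 to -0.03 with an array left out).

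Amino acid catabolism feeds carbon into glucose synthesis and nitrogen into the urea cycle. Of 32 measured members 1 fell, Hoga1, and 0 rose. In 12 every old array was below every young array (37.5%, against 5.73% of all genes), and 26 of the 32 differences were below 0. The median was -0.29, and -0.41 without young animal 2, when 19 members lay below (11.2% of all genes). It was -0.05 with sunflower oil and -0.67 with fish oil. Of the 11 hepatocyte markers 10 had differences below 0, with a median of -0.11 (-0.06 without old animal 3, -0.01 after quantile normalization). Their summed signal was 85164.5 to 91943.7 in young and 72849.3 to 84873.6 in old livers, without overlap. Alb gave 11324.5, 12350.5 and 10547.9 against 9829.8, 10032.7 and 7817.9 (-0.31, adjusted p = 0.478), and limma called 0 of the 11 (1 lower at an unadjusted p under 0.05). The part of hepatocyte content in the values of metabolic genes was not tested.

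Sds, the serine dehydratase, gave 3074.1, 1593.1 and 2590.2 in young and 329.8, 50.4 and 69.4 in old livers (-4.23 ± 1.09, adjusted p = 0.176). Its relative Sdsl gave 208.6, 182.8 and 139.6 against 66.4, 59.8 and 82.3 (-1.17 ± 0.224, adjusted p = 0.0554). Neither passed, although the ages stood well apart for both, and Sdsl was called without young animal 3. Bckdha, a subunit of the branched-chain ketoacid dehydrogenase, gave 945.8, 771.6 and 837.0 against 608.3, 555.9 and 402.9 (-0.70, adjusted p = 0.268). Within the urea cycle Ass1 (-0.48) and Asl (-0.90), which make and split argininosuccinate, had arrays that did not overlap, while Cps1 (-0.13), Otc (0.24) and Arg1 (-0.17) overlapped, as did Tat (-0.08), the tyrosine aminotransferase that glucocorticoids induce.

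In one-carbon metabolism and methyl transfer 1 of 22 members fell, Inmt, and 0 rose. Every old array was below every young array in 5 (22.7%, against 5.73% of all genes) and above in 1 (4.55%, against 8.18%), with a median of -0.24 (-0.01 with sunflower oil and -0.42 with fish oil). Mat1a, the liver form of the enzyme that makes S-adenosylmethionine, gave 8178.4, 7268.5 and 6804.6 against 6087.7, 5114.9 and 5328.1 (-0.43 ± 0.153, adjusted p = 0.348). Mat2a, the form used by other tissues and by dividing hepatocytes, was the member that ran the other way, at 182.1, 197.8 and 295.4 against 439.1, 390.3 and 325.8 (0.75 ± 0.251, adjusted p = 0.322). The folate enzyme Mthfd1 gave 1246.8, 1754.3 and 1028.0 against 614.5, 725.0 and 958.0 (-0.79, adjusted p = 0.367). Neither passed with the brightest probe set of each gene. A second probe set of Mat2a gave 0.95 and passed over all probe sets (adjusted p = 0.0495), and the dimmest gave -0.51 (adjusted p = 0.415).

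Oxidative phosphorylation joins the respiratory chain to ATP synthase. Limma called 0 of its 54 measured members (0 higher and 10 lower at an unadjusted p under 0.05), and 49 of the 54 differences were below 0 with a median of -0.18 (-0.18 with sunflower oil and -0.53 with fish oil). The median was -0.33 without old animal 1 and -0.09 without old animal 2. In 7 every old array was below every young array (13.0%, against 5.73% of all genes), among them the complex I subunits Ndufs7 (-0.48), Ndufs3 (-0.47), Ndufa9 (-0.44) and Ndufv1 (-0.44). Ndufv1 gave 1086.2, 1412.5 and 1054.5 in young and 906.1, 844.7 and 837.7 in old livers (adjusted p = 0.296), a small gap with no overlap. Ppargc1a, the coactivator that drives mitochondrial biogenesis, gave 67.1, 77.5 and 46.3 against 15.9, 25.1 and 26.6 (-1.04 ± 0.239, adjusted p = 0.122). It was lower in all 3 old livers. A second probe set of Ppargc1a gave -1.30 and passed over all probe sets (adjusted p = 0.0377), and the dimmest gave -0.32 (adjusted p = 0.679). The median of its list of 26 was -0.09, or -0.04 without young animal 3, with limma calling 0 (3 lower at an unadjusted p under 0.05).

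In glycolysis and gluconeogenesis 1 of 27 members fell, Pfkm, 0 rose, and every old array was below every young array in 4 (14.8%, against 5.73% of all genes). Liver glycogen synthase (Gys2) gave 731.1, 757.4 and 473.6 against 416.6, 361.3 and 255.4 (-0.89 ± 0.242, adjusted p = 0.209). Ugp2, which makes the UDP-glucose that glycogen is built from, gave 3269.1, 5801.8 and 3768.3 against 2488.3, 2288.7 and 2090.4 (-0.86, adjusted p = 0.325). Both genes of glycogen synthesis were lower in every old liver. Pck1, the first committed enzyme of gluconeogenesis, was level at 7237.2 to 7653.9 and 6163.4 to 8142.6 (-0.06, standard error 0.131).

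Of 35 antioxidant genes and NRF2 targets 1 rose, Nfe2l2 itself, and 0 fell, with a median of -0.05 (-0.17 without old animal 1 to 0.01 without young animal 2). Nqo1, a quinone reductase widely used as a readout of NRF2, gave 346.9, 347.9 and 182.6 in young and 83.0, 75.3 and 80.6 in old livers, the reverse of Nfe2l2 (-1.64 ± 0.379, adjusted p = 0.122). The difference of Nqo1 was -0.35 with sunflower oil and -0.01 with fish oil, and virgin olive oil minus their mean was -1.46 (95% interval -2.44 to -0.47, adjusted p = 1 in limma). Thioredoxin reductases split, with the cytosolic Txnrd1 at 0.42 and the mitochondrial Txnrd2 at -0.53 (adjusted p = 0.438 and 0.252), and neither overlapped. Sod2 (0.12, standard error 0.197), Cat (0.03, 0.16), Gpx1 (0.05, 0.122) and Hmox1 (0.45, 0.351) overlapped between the ages. The core of the antioxidant response element, TGACNNNGC, was in 5 of 31 members with a promoter (16.1%) and in 12.3% of measured genes.

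Eif4ebp3 was the single call among genes of translation control and growth signals. Of 28 genes of translation control and mTOR 1 fell, Eif4ebp3, and 0 rose. Its target Eif4e, the cap-binding protein, gave 570.5, 620.3 and 493.8 against 796.2, 734.0 and 812.2 (0.47 ± 0.168, adjusted p = 0.348), higher in every old liver, and S6 kinase (Rps6kb1) had a difference of 0.39. Of 30 genes of insulin, growth hormone and IGF signalling limma called 0 (2 higher and 3 lower at an unadjusted p under 0.05). Igfbp2, which binds insulin-like growth factors, gave 401.3, 498.0 and 1218.2 in young and 65.7, 110.6 and 51.4 in old livers (-2.86 ± 0.706, adjusted p = 0.152), without overlap and with young animal 3 far above. Igf1 was level (-0.01, standard error 0.155).

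Rat liver genes that differ between the sexes follow the pattern of growth hormone release. Of 16 female-biased genes limma called 0 (4 higher and 1 lower at an unadjusted p under 0.05). In 6 every old array was above every young array (37.5%, against 8.18% of all genes), and the median was 0.49, or 0.31 without old animal 3. Akr1b7, an aldo-keto reductase, was at 0.3, 0.2 and 4.3 in young and 287.4, 43.0 and 241.0 in old livers (3.25 ± 0.931, adjusted p = 0.245). Cyp2c12, the steroid hydroxylase typical of females, gave 10.1, 70.7 and 60.7 against 323.2, 269.7 and 265.8 (2.43 ± 0.87, adjusted p = 0.347). For both, every old male lay above every young male. Cyp3a9 ran the other way, from 1507.0, 1078.4 and 1319.2 to 63.1, 326.8 and 453.0 (-2.48 ± 0.515, adjusted p = 0.081), and its difference was -0.24 with sunflower oil and -0.40 with fish oil (virgin olive oil minus their mean -2.16, 95% interval -3.50 to -0.83, limma adjusted p = 1). Of 16 male-biased genes limma called 0, also at an unadjusted p under 0.05. Their median was -0.10 here (-0.17 without old animal 1 to -0.01 without old animal 3), 0.01 after quantile normalization, -0.69 with sunflower oil and -0.92 with fish oil. Cyp2c11, the main male P450, ran from 5829.1 to 8271.5 in young and from 5125.0 to 6651.9 in old livers (-0.24 ± 0.357, adjusted p = 0.882).

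Lipid genes depended on young animal 2. Fatty acid synthesis is driven by feeding and insulin, and in this animal its genes stood far above those of the other young livers. Scd gave 25.8, 8930.1 and 25.3 in young and 427.7, 4551.2 and 4875.6 in old livers (3.11 ± 2.51, adjusted p = 0.732). Fatty acid synthase (Fasn) gave 95.3, 2535.3 and 69.9 against 167.9, 253.6 and 468.4 (-0.01 ± 1.33, adjusted p = 0.999). In the other young livers both genes lay below every old liver, and in animal 2 both lay above. The lipase-like Pnpla3 (556.1 against 6.6 and 8.3), the elongase Elovl6 (1080.0 against 56.3 and 27.7) and the pyruvate kinase Pklr (3579.1 against 216.0 and 155.4) were likewise high in it. Acot1, a thioesterase induced in fasting (4.8 against 283.4 and 375.5), Cldn1, a tight junction protein (11.9 against 173.4 and 507.0), Serpina7, a carrier of thyroid hormone (83.7 against 736.3 and 935.5), and Ptgis, prostacyclin synthase (1.9 against 151.9 and 106.7), were low.

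The list values moved with it. Of 28 genes of fatty acid synthesis and desaturation limma called 0 (1 higher and 2 lower at an unadjusted p under 0.05), and the median of -0.28 became 0.15 without young animal 2, when 8 members lay above and 2 below (12.7% and 11.2% of all genes), -0.55 without young animal 3 and -0.04 without old animal 1. Of 19 genes of cholesterol synthesis and uptake limma called 0 (4 lower at an unadjusted p under 0.05). Their median of -0.61 became -0.16, and -0.24 without old animal 1. Pmvk (-1.01) and Mvk (-0.73), kinases that act on mevalonate, and the squalene synthase Fdft1 (-1.27) had arrays that did not overlap. These were 15.8% of the list, against 5.73% of all genes with every old array below. Of 34 PPAR-alpha targets limma called 0 (2 higher at an unadjusted p under 0.05), and their median of 0.16 became -0.07, 0.35 without young animal 1 and 0.09 without old animal 2. Across genes, the deviations of this array from its group mean had a correlation of 0.42 with those of the animal numbered 2 on sunflower oil at 6 months and 0.40 with that on fish oil, against 0.15 to 0.25 for the pairs numbered 1 and 3. The feeding state of the animals at killing was not tested.

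Other lipid genes kept their direction without it. Cyp4a8, an omega-hydroxylase of fatty acids, stood at 4.4, 66.7 and 12.4 in young and 248.0, 104.9 and 368.5 in old livers (2.67 ± 0.586, adjusted p = 0.101), and at 3.26 without young animal 2. Plin2, the coat protein of lipid droplets, gave 2316.4, 916.6 and 2708.0 against 4110.0, 3806.1 and 2949.2 (0.99 ± 0.338, adjusted p = 0.325), or 0.52 without that animal. Cyp7a1, which sets the pace of bile acid synthesis, gave 490.2, 938.2 and 579.4 against 326.6, 183.6 and 446.0 (-1.06 ± 0.688, adjusted p = 0.649). The bile acid receptor gene Nr1h4 gave 686.7, 642.4 and 989.8 against 1173.3, 1346.4 and 1201.4 (0.69 ± 0.217, adjusted p = 0.284). In none of the 4 did the ages overlap. Cpt1a, the gate of fatty acid oxidation (-0.46), Pdk4, which holds back pyruvate oxidation (-0.22), the receptor gene Ppara (0.49), the fatty acid transporter Cd36 (1.18) and the lipogenic regulator Srebf1 (-0.49) overlapped. The desaturases Fads1 (-0.97) and Fads2 (-1.18), which make long-chain polyunsaturated fatty acids, overlapped and did not pass (adjusted p = 0.596 and 0.451).

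**Figure D5:**
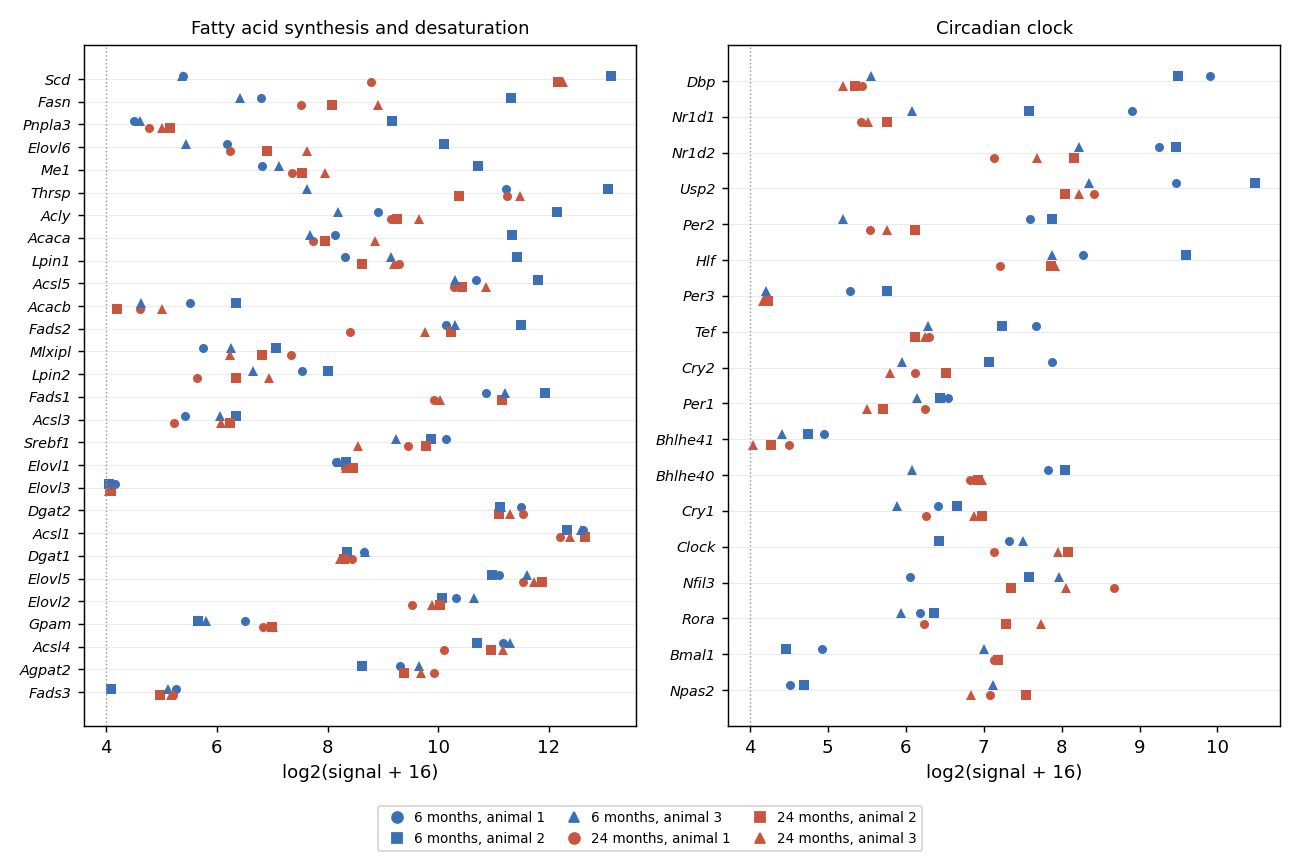
Signal of each measured member of fatty acid synthesis and desaturation (left, ordered by how far young animal 2 lay from the other young livers) and of the circadian clock (right, ordered by age difference) on the 6 virgin olive oil arrays, log2(signal + 16) scale. On the left the blue square of young animal 2 stands apart in the upper rows, and on the right the blue triangle of young animal 3 lies among the red symbols in most rows.

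Clock genes cycle over the day in liver, with the activators Bmal1 and Npas2 opposite in phase to Nr1d1 and Dbp, which they and Clock drive. Of 18 measured members limma called 0 (4 higher and 5 lower at an unadjusted p under 0.05), and the median was -0.69, -1.12 without young animal 3 and -0.42 without young animal 1. Dbp gave 939.6, 704.7 and 30.9 in young and 27.4, 24.7 and 20.7 in old livers (-2.99 ± 0.923, adjusted p = 0.279). Nr1d1 gave 464.9, 174.8 and 51.6 against 27.0, 38.2 and 29.6 (-1.96 ± 0.59, adjusted p = 0.273). Bmal1 gave 14.4, 6.1 and 112.0 against 124.0, 129.6 and 129.4 (1.70 ± 0.549, adjusted p = 0.304). Young animal 3 thus lay beside the old livers for activator and targets alike, while the 3 old livers were nearly equal. Without it Dbp and Bmal1 were called. The hour of killing was not tested. An E-box, CACGTG, was in 3 of 16 members with a promoter (18.8%, against 7.82% of measured genes) and a D-box, TTATGNAA, in 1 of 16 (6.25%, against 1.8%).

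The remaining lists had medians between -0.15 and -0.01, each of which moved by over 1.5 times or changed sign with at least 1 array left out, and limma called 0 of their members. They were acute phase and complement (27 measured, 0 higher and 1 lower at an unadjusted p under 0.05), lipoprotein and lipid transport (26; 1 and 1), bile acid synthesis and transport (21; 1 and 1), xenobiotic metabolism (47; 4 and 4), unfolded protein and heat shock response (32; 0 and 3), extracellular matrix (27; 1 and 2), telomere maintenance (26; 1 and 3) and autophagy and lysosome (26; 1 and 5).

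Single members of these lists stood apart between the ages. Cd63, a tetraspanin of lysosomes, gave 1300.5, 978.6 and 879.0 in young and 274.5, 234.8 and 215.2 in old livers (-2.04 ± 0.472, adjusted p = 0.122), and it was called when the 6 arrays were fitted alone. Por, which passes electrons to all microsomal P450 enzymes, gave 2083.2, 2785.3 and 814.5 against 681.3, 717.7 and 734.3 (-1.22 ± 0.354, adjusted p = 0.254), with young animal 3 close to the old livers, and it was called without that animal. With these probe sets every old liver lay below every young one for both genes. A second probe set of Por overlapped, at 1136.9, 1204.1 and 170.3 against 383.6, 397.1 and 361.1 (-0.69, limma adjusted p = 0.686 over all probe sets). The acute phase protein gene A2m gave 88.4, 184.3 and 101.2 against 51.9, 31.8 and 34.8 (-1.30, adjusted p = 0.279). Atf6, a sensor of unfolded proteins in the endoplasmic reticulum, gave 462.0, 450.6 and 480.3 against 290.5, 326.2 and 306.1 (-0.57 ± 0.161, adjusted p = 0.244), narrow at both ages. Its difference was 0.12 with sunflower oil and 0.26 with fish oil (virgin olive oil minus their mean -0.76, 95% interval -1.17 to -0.34, limma adjusted p = 1).

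Matrix genes gave no common direction. Col1a2, a chain of type I collagen, gave 66.5, 65.9 and 49.9 in young and 15.9, 34.2 and 44.4 in old livers (-0.73, adjusted p = 0.325), while Mmp14, a membrane protease that breaks down matrix, gave 493.4, 194.0 and 496.5 against 619.4, 830.3 and 598.2 (0.86, adjusted p = 0.348). They stood on opposite sides of 0, and neither passed. Col1a1 (-0.12) and Tgfb1 (-0.06), which drives fibrosis, overlapped. In autophagy Becn1, which starts the autophagosome, had a difference of 0.37 and Atg13, of the initiating kinase complex, -0.55, both without overlap and both short of the threshold (adjusted p = 0.348 and 0.426). Cyp27a1, the first enzyme of the acidic route to bile acids, gave 4179.0, 4196.6 and 3308.4 against 3111.1, 2063.7 and 2616.2 (-0.59 ± 0.165, adjusted p = 0.233).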

How the data were processed

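Liver RNA of 18 male Wistar rats was measured on 1 array each, 3 animals per age and oil. The values were the authors' deposited intensity values, linear and with a 2% trimmed mean of 99.2 to 99.4 per array. RMA and Partek are named in the submitters' processing notes. Since RMA output is on a log2 scale with equal quantiles, these are not plain RMA values, and what software made them was not given in the sources used here. Of the values on the virgin olive oil arrays, 48.0% were under 16, and precision is limited by 3 animals per group.

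Of 31042 probe sets, 20826 had 1 gene symbol in the platform annotation, 436 had several and 9780 had none. RefSeq held 20758 of those with 1 symbol. Each of the 14217 genes was represented by its brightest probe set on average (mean log2 signal), and 4525 genes had a choice of several.

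Signals were transformed as log2(signal + 16) and fitted as 6 group means to the 18 arrays (lmFit, then eBayes, from limma 3.58.1 under R 4.3.3), with 12 residual degrees of freedom and 4.32 from the prior. Contrasts gave the age difference on virgin olive oil and its difference from the other oils. Adjustment was Benjamini-Hochberg's across all genes, and the threshold 0.05. In a single simulated data set with 200 genes changed, this fit recovered 11.9%, 59.7% and 95.5% of genes changed 1.5, 2 and 4 fold on virgin olive oil, with 3.48% false among its calls. The folds were on the log2(signal + 16) scale, and errors were normal and independent between arrays. The simulation thus left out that same-numbered arrays at 6 months deviated together, and its false share need not hold for the real calls.

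Named genes were every called gene, up to 4 members of each list taken by call and then by smallest p among those not overlapping, a list of core genes, the 5 genes with the smallest p for each contrast between oils, and the 5 in each direction farthest from their group on young animal 2. Genes of the interferon, urea cycle, clock, cholesterol and ductal lists named beyond this were picked with their values known. The members, lists and tests were chosen with earlier results of these data known, and no set test was run. Promoters and coordinates are RefSeq's, on GRCr8. Counts without young animal 2, list medians with an array left out and the block within an age, for contrasts between oils, were added after seeing the data. Alternatives were another pseudocount, a filter on low signal, quantile normalization, all probe sets averaged, another prior, the replicate block, fewer arrays and each virgin olive oil array left out. Python 3.11.15, numpy 2.4.6, pandas 2.3.3 and matplotlib 3.10.9 prepared data and figures.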

Additional observations from a re-analysis of the deposited data

How the results depend on the processing

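The count of 14 genes higher and 6 lower with age on virgin olive oil became 6 and 2 with only the 6 virgin olive oil arrays, 6 and 2 with a pseudocount of 1, 14 and 3 with all probe sets averaged, 20 and 13 without the third fish oil array at 24 months, and 1 and 0 without the arrays numbered 2 at 6 months. It was 12 and 9 with a pseudocount of 64, 13 and 8 with the filter on low signal, 12 and 6 after quantile normalization and 12 and 7 with the other prior. With the arrays of virgin olive oil left out in turn, the higher count ran from 2 to 15, the lower from 0 to 10, and genes that differed from the other oils from 0 to 1. With the replicate block 17 were higher and 10 lower, 17 of the 20 among them. The fit to only the 6 virgin olive oil arrays kept 6 of the 20, and its other calls were Cd63 and Irgm. Arrays of the same number at both ages had correlations of -0.08, -0.01 and -0.08 across genes. Each young array correlated best with an old array of another number (0.10, 0.08 and 0.14). What the number stands for across ages is not given in the labels. Of 318 pairs of a called gene and an alternative 173 kept the call, 145 lost it and 0 turned direction. Without the third fish oil array Ppargc1a, Gdf15, Cyp2c12, Cd63, Irgm and Sdsl were called. The cause of these changes was not tested, and signals near 16 limit what dim genes can show.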

Other observations

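Some genes were either high or nearly silent within an age, and the animals that were high differed from gene to gene. RT1-T24-4, a class I gene, gave 476.0, 1.2 and 1.0 in young livers and 990.8, 540.6 and 5.0 in old ones. Ubd, an interferon-induced ubiquitin-like protein, gave 565.6, 19.7 and 14.2 against 1215.2, 1170.7 and 30.6. In both, young animal 1 and old animals 1 and 2 were high. RT1-CE10 gave 104.0, 1178.6 and 1061.2 against 75.0, 1041.9 and 1279.9, low in the animals numbered 1. Among 18 RT1 genes 6 (33.3%) had a range of more than 2 log2 units within an age, against 161 of 14217 genes (1.13%). Ugt2b, a glucuronosyltransferase, gave 5454.0, 7.0 and 8.3 in young and 5468.6, 6112.5 and 5215.5 in old livers, so that its age difference of 5.27 had an adjusted p of 0.571. These genes were chosen after their values were seen.

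Cela1, an elastase on the list of exocrine pancreas markers, gave 902.4, 874.4 and 878.0 in young and 454.7, 566.7 and 429.6 in old livers (-0.86, limma adjusted p = 0.398). Of the 12 pancreas markers 6 had differences above 0 and 6 below, 2 lay above and 1 below without overlap (16.7% and 8.33%, against 8.18% and 5.73% of all genes), and the median was -0.0006. Their sum of 949.8 to 980.6 in young and 544.2 to 693.5 in old livers is mostly Cela1 itself, and 6 of the 12 were under 16 on all 6 arrays, among them Prss1, Prss2 and Cela2a.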
